A study of Rattus norvegicus with 8 samples.

Results

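The 10 genes described here, Thbs1, Thbs2, Thbs3, Thbs4, Comp, Tnc, Postn, Sparc, Sparcl1 and Spp1, code for matricellular proteins and were picked out by gene name. All 10 were found among the 32623 genes counted, and all 10 were among the 11682 genes whose mean normalised count over the libraries reached 100 and which were therefore tested. Sprague Dawley rats of both sexes received an arteriovenous fistula (AVF) in which the epigastric vein was joined end to side to the femoral artery, and an electrospun bilayer scaffold of poly(lactic acid) and poly(lactic-co-glycolic acid) was wrapped around the vein. In the BAPN group (4 rats, 3 female and 1 male) the scaffold carried β-aminopropionitrile, which inhibits lysyl oxidases, the enzymes that crosslink fibrillar collagen and elastin, and in the Vehicle group (4 rats, 2 female and 2 male) it carried the vehicle alone. The vein was taken at day 21, and 1 total RNA library was sequenced per rat. Both groups therefore carried a fistula and a scaffold, and no vein without them was analysed here.

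Matricellular proteins are secreted into the extracellular matrix but act less as structural parts than as modulators: they bind collagens, growth factors, proteases and cell surface receptors and so alter adhesion, migration and matrix assembly. Most are sparse in the resting vessel wall and are made in quantity during development, wound repair and vascular injury, by smooth muscle cells, fibroblasts, macrophages and endothelial cells. Thrombospondins, SPARC, tenascin-C and periostin all interact with collagen assembly or with transforming growth factor β (TGF-β) signalling, which places them near the crosslinking step that BAPN inhibits.

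The BAPN libraries held 45039451 to 52241007 counted reads and the Vehicle libraries 19548203 to 22442050, without overlap. With libraries thinned to equal totals the same gene of the 10 was called, with nearly the same fold changes (Sparcl1 at -1.37 on the log2 scale). The 10 genes together took 1.53 to 2.86% of the reads of a library. Levels are given as CPM, counts scaled to library size after trimmed mean (TMM) normalisation, and log2 fold changes are BAPN relative to Vehicle, so that a negative value is a lower level with BAPN. CPM is not corrected for gene length, so levels are compared between libraries and never between genes. Vehicle 4, from a male rat, stood apart from the other libraries for these genes: it had the highest level of all 8 libraries for Thbs1, Thbs2, Thbs3, Thbs4, Comp, Tnc, Postn and Sparc, and the lowest for Spp1. Results for the 10 genes are therefore also given without it.

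Of the 10 genes, Sparcl1 alone passed the test between groups, and it was lower with BAPN (edgeR quasi-likelihood test, Benjamini-Hochberg adjusted p below 0.05 over all tested genes). That is 1 of 10, where 16.8% of all tested genes were called by this test and 9.25% were called lower. By DESeq2, which called 27.4% of all tested genes, Sparcl1, Thbs3 and Spp1 passed. The fitted log2 fold change was below 0 for 8 of the 10 genes, against 48.4% of all tested genes, and the median over the 10 was -0.54 against 0.02 over all tested genes. Without Vehicle 4 it was below 0 for 4 of the 10, and their median became 0.13. In females alone it was below 0 for 3 of the 10, with a median of 0.28. With sex as a covariate it was below 0 for 7 (median -0.13), and by limma-voom for 7 (median -0.28). In whole tissue such as this, fewer cells of a type and less RNA per cell cannot be told apart.

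**Figure D1:**
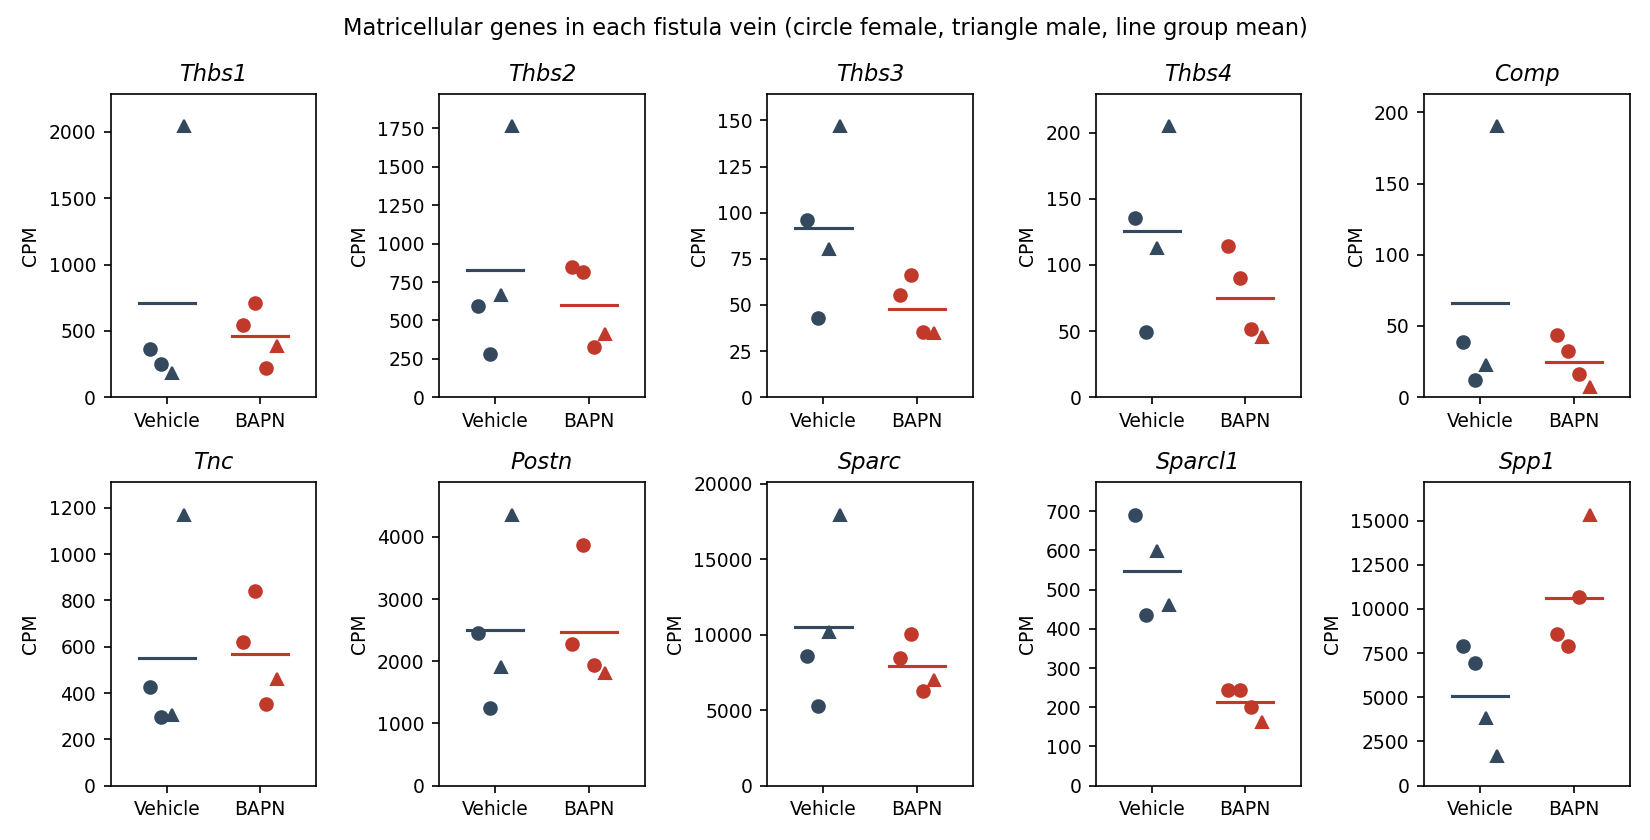
Level of each of the 10 matricellular genes in every library, in CPM on a linear axis from 0, with a circle for each female rat, a triangle for each male and a line at the group mean. Sparcl1 was the gene without overlap between groups, and Vehicle 4 was the highest point for 8 genes and the lowest for Spp1.

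The promoters of 5 of the genes are shown because the results turn on them: Sparcl1, the gene that was called, Sparc, its closest relative, Spp1, the gene with the highest fold change, and Thbs1 with Tnc, the pair whose levels ran most closely together. Each sequence runs 5′ to 3′ from 250 bases before the annotated start to 50 after it, from RefSeq on the rat build GRCr8. Sparcl1 lies at chr14:5937234-5937533 on the plus strand, Sparc at chr10:40038767-40039066 on the minus strand, Spp1 at chr14:5619755-5620054 on the minus strand, Thbs1 at chr3:125510000-125510299 on the plus strand and Tnc at chr5:82476082-82476381 on the minus strand. Capitals mark matches, on either strand, to the short motifs named after the sequences.
Sparcl1: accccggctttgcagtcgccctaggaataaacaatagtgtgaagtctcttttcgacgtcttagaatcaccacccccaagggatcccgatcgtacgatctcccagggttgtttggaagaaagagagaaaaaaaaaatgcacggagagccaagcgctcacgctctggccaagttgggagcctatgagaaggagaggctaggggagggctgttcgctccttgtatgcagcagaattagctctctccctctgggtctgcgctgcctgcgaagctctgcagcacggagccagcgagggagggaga
Sparc: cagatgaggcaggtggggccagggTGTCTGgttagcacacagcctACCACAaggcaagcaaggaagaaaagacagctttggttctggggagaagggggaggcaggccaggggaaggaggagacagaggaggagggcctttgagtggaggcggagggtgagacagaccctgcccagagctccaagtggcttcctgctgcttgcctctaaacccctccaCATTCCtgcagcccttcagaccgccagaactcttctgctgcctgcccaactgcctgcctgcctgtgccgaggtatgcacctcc
Spp1: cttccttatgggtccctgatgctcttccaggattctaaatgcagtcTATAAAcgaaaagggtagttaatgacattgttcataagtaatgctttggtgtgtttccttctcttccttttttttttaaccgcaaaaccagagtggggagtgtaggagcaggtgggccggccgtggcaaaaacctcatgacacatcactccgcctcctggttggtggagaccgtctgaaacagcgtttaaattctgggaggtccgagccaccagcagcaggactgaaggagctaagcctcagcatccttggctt
Thbs1: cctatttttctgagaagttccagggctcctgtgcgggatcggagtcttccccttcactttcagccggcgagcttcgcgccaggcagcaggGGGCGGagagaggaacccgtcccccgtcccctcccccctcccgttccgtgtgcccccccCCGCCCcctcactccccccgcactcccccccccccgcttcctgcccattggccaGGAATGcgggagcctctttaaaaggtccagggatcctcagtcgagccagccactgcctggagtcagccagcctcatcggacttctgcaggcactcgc
Tnc: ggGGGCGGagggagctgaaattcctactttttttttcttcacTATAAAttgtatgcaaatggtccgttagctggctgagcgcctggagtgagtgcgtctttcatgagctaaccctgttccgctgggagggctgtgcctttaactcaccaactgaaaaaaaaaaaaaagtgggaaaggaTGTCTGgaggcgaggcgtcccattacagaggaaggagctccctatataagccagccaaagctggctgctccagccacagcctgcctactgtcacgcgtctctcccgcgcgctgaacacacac

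Motifs of 7 kinds were searched on both strands, with no overlap among the matches found: AP-1 (TGANTCA), TEAD (GGAATG), SMAD (CAGACA), the TATA box (TATAAA), the GC box (GGGCGG), RUNX (TGTGGT) and the CArG box of SRF. Over 27457 promoters of the same length, 7.33% held the AP-1 letters, 13.9% the TEAD letters, 20.8% the SMAD letters, 14.3% the TATA box, 34.9% the GC box, 16.9% the RUNX letters and 1.64% the CArG box. A promoter was in the table for 9 of the 10 genes, the exception being Thbs2. Of these 9, 3 held TEAD, 4 SMAD, 3 the TATA box, 4 the GC box, 1 RUNX, and 0 AP-1 or the CArG box. Sparcl1 held 0 matches in this window, and Sparc held a SMAD, a RUNX and a TEAD match. Spp1 held a TATA box match, Thbs1 a pair of GC boxes and a TEAD match, and Tnc a GC box, a TATA box and a SMAD match. These are matches of letters in a window, not sites shown to be used.

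Sparcl1 (ENSRNOG00000015093) codes for SPARC-like protein 1, or hevin, an anti-adhesive glycoprotein known from vessel walls and endothelium. It was at 244, 244, 200.2 and 163 CPM in BAPN 1 to 4 and at 692, 435, 598 and 461 CPM in Vehicle 1 to 4. Every BAPN library lay below every Vehicle library, a separation that 24.7% of all tested genes had in one direction or the other. BAPN rats averaged 213 ± 39.1 CPM and Vehicle rats 546 ± 120.4 CPM (SD, n = 4, as in all means given), so that the Vehicle mean was 2.57 times the BAPN mean. The log2 fold change was -1.36 with a standard error of 0.19 and an adjusted p of 0.00863 (edgeR), and the exact two-sided permutation test gave p = 0.0286, the smallest that 4 rats against 4 allow. Vehicle 4 was not the extreme library for Sparcl1, at 0.803 times the mean of the other Vehicle libraries. Leaving out each rat in turn kept the log2 fold change between -1.46 and -1.23 and the adjusted p between 0.00733 and 0.0301. In females alone (3 BAPN and 2 Vehicle rats) Sparcl1 was at -1.30 and was not called (edgeR adjusted p = 0.0604).

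Endothelial and smooth muscle markers, which stand for cells known to make hevin, were set beside Sparcl1. All 6 endothelial markers tested had a negative fold change, 2 of them called, and their summed level was 450 to 591 CPM with BAPN and 737 to 1475 CPM with Vehicle, without overlap. All 8 smooth muscle markers had a negative fold change, 6 of them called, with sums of 1673 to 4265 CPM and 3346 to 6090 CPM that did overlap. Of all tested genes 9.25% were called lower. Per unit of the endothelial sum, Sparcl1 was 0.422 ± 0.0648 with BAPN and 0.576 ± 0.161 with Vehicle (exact permutation p = 0.0857, adjusted 0.171 over 4 ratios that were chosen after the values were seen). Per unit of the smooth muscle sum it was 0.0950 ± 0.0270 and 0.123 ± 0.0579 (exact permutation p = 0.486, adjusted 0.648). The part of these markers in the fall of Sparcl1 was not tested.

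**Figure D2:**
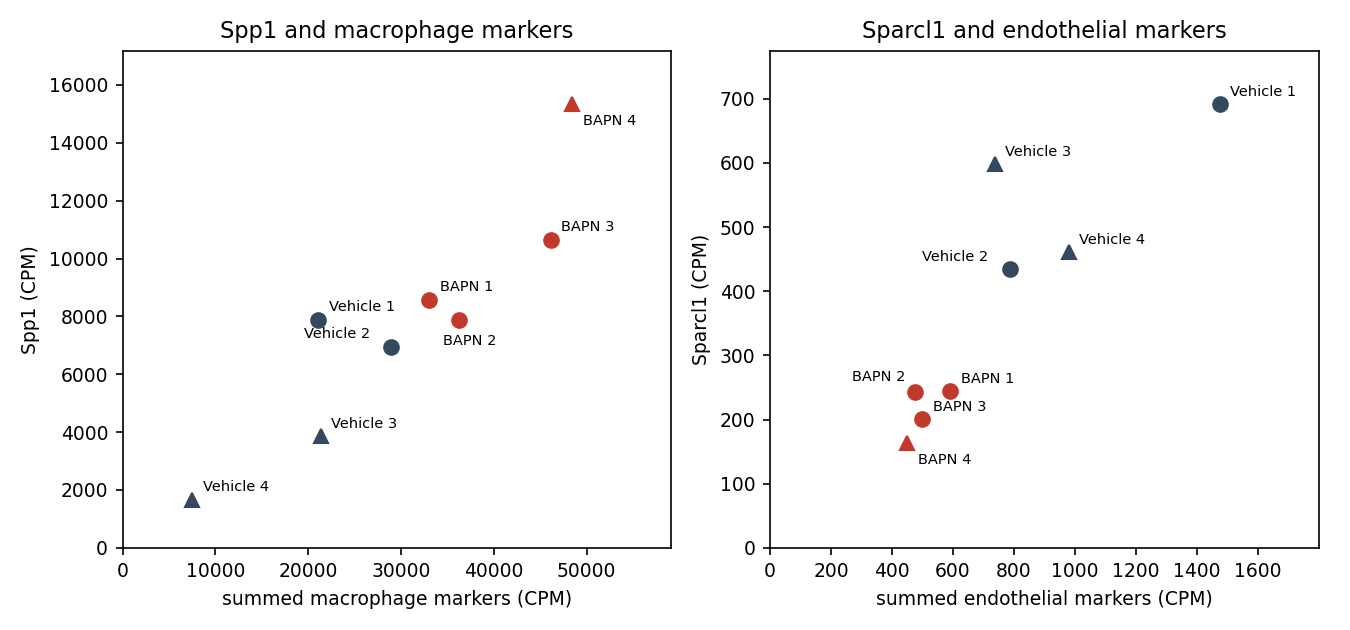
Level of Spp1 against the summed macrophage markers and of Sparcl1 against the summed endothelial markers, both axes in CPM, with 1 named point per library (BAPN red, Vehicle blue, circle female, triangle male). Endothelial and macrophage sums did not overlap between groups, Lyz2 took most reads of the macrophage sum, and Vehicle 4 had the lowest macrophage sum at 7500 CPM.

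Sparc (ENSRNOG00000012840) codes for osteonectin, the collagen-binding glycoprotein that gives the family its name. Its level was 8479.9, 10019, 6288 and 6969.6 CPM in BAPN 1 to 4, and 8569, 5257, 10212 and 17967 CPM in Vehicle 1 to 4. All BAPN values lay within the Vehicle range, with Vehicle 2 the lowest and Vehicle 4 the highest of the 8. Means were 7939 ± 1662 CPM and 10501 ± 5387 CPM, with a log2 fold change of -0.40 (standard error 0.37, edgeR adjusted p = 0.441), and without Vehicle 4 the fold change was -0.01. The ratio of Sparc to Sparcl1 within a library was 31.4 to 42.8 with BAPN and 12.1 to 38.9 with Vehicle. The 3 Vehicle libraries other than Vehicle 4 lay at 12.4, 12.1 and 17.1, below all BAPN libraries, and Vehicle 4 lay within the BAPN range at 38.9 (exact permutation p = 0.0857, adjusted 0.171).

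Spp1 (ENSRNOG00000043451) codes for osteopontin, a secreted phosphoprotein that binds integrins and CD44 and is made in quantity by macrophages and by smooth muscle cells of injured vessels. It was at 8579, 7879, 10653 and 15341 CPM in BAPN 1 to 4 and at 7882, 6956, 3854 and 1666 CPM in Vehicle 1 to 4. BAPN libraries were the higher ones except that BAPN 2 lay just under Vehicle 1, so the groups overlapped by a narrow margin. Means were 10613 ± 3365 CPM and 5089.6 ± 2859.5 CPM, with a log2 fold change of 1.06 and a standard error of 0.52. The adjusted p was 0.126 by edgeR and 0.0430 by DESeq2, so the call depended on the tool, and the exact permutation test of Spp1 alone, with no adjustment over genes, gave p = 0.0571. The 95% interval of limma-voom, not adjusted over genes, ran from 0.08 to 2.41 around an estimate of 1.24. Leaving out each rat in turn moved the fold change between 0.77, without Vehicle 4, and 1.35, without Vehicle 1.

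The macrophage marker sum, like Spp1, was larger in the BAPN libraries. Of 10 markers tested, 9 had a positive fold change, 0 were called by edgeR, 1 was below an unadjusted p of 0.05 by edgeR, and 1 was called by DESeq2, against 16.8% and 27.4% of all tested genes called by these tools. Their sum was 33039 to 48470 CPM with BAPN and 7500 to 28920 CPM with Vehicle, and Lyz2, which took most reads of the list, averaged 31549 and 12958 CPM. Lyz2 was the single marker tested without overlap between groups, so this sum, and Spp1 per unit of it, rest mostly on Lyz2. Marco was at 0 in all libraries. Spp1 per unit of this sum was 0.256 ± 0.0440 with BAPN and 0.254 ± 0.0838 with Vehicle (exact permutation p = 0.886). The part of these markers in the level of Spp1 was not tested.

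The sexes were not evenly split between the groups, and several of the 10 genes had different fold changes in females and males. Comp was at a log2 difference of 0.40 in females and -3.24 in males, Thbs2 at 0.59 and -1.39, and Thbs4 at -0.01 and -1.75, all with 1 BAPN male. Among females the level of Spp1 was 7879 to 10653 CPM with BAPN and 6956 to 7882 CPM with Vehicle, a log2 difference of 0.28. Among males the values were 15341 CPM in the single BAPN rat and 1666 and 3854 CPM in the 2 rats given Vehicle, a log2 difference of 2.60. The interaction of sex and treatment was called for 0 of the 10 genes by edgeR, with Comp and Spp1 below an unadjusted p of 0.05, and for Spp1 alone by DESeq2. Over all tested genes edgeR called 0, with 1442 below an unadjusted p of 0.05, and DESeq2 called 445 (3.81%). With 1 BAPN male, sex and the single animal cannot be told apart.

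Spp1 and Sparcl1 lie near each other on rat chromosome 14 in RefSeq, with 8 annotated genes between them of which 4 code for proteins. These are Mepe, Ibsp, Dmp1 and Dspp, bone and tooth matrix genes of the same family of phosphoproteins as Spp1. Mepe had 0 to 55 reads per library, Ibsp 1 to 90, Dmp1 6 to 225 and Dspp 0 in all, and none reached the level needed for the test. Spp1 and Sparcl1 thus had fold changes of opposite sign, and the family members between them were scarcely counted.

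Thbs1 (ENSRNOG00000045829) and Thbs2 (ENSRNOG00000010529) code for the trimeric thrombospondins, which inhibit angiogenesis through CD36 and CD47, and of which thrombospondin-1 also activates latent TGF-β. Thbs1 was at 541, 712, 216 and 385 CPM in BAPN 1 to 4 and at 365, 253, 184 and 2044 CPM in Vehicle 1 to 4. Its highest value and its lowest were both Vehicle libraries, and Vehicle 4 stood at 7.66 times the mean of the other 3. The means of 464 ± 212 CPM and 711 ± 892 CPM gave a log2 fold change of -0.62 (standard error 0.73, edgeR adjusted p = 0.569, exact permutation p = 1). By limma-voom, which gave that standard error, the estimate was -0.05. Without Vehicle 4 the Vehicle mean was 267 ± 91.4 CPM and the fold change turned to 0.80, so the direction for Thbs1 rested on that rat. In RefSeq a long noncoding RNA overlaps Thbs1 and another overlaps Tnc, and reads of these pairs may not be separable in the counts. Platelet markers, which thrombospondin-1 is stored beside, summed to 67.4 to 124 CPM with BAPN and 44.9 to 88.6 CPM with Vehicle. Gp1bb was at 0 throughout, and Ppbp, Gp9 and Gp6 were below the level for testing. Pf4 made up most of that sum and was not called (78.8 and 51.0 CPM, edgeR adjusted p = 0.114), while Itga2b was called lower (4.2 and 9.8 CPM, edgeR adjusted p = 0.0401). The part of these markers was not tested.

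Thbs2 showed the same arrangement with a smaller departure. It was at 851, 814, 329 and 414 CPM in BAPN 1 to 4 and at 595, 278, 664 and 1766 CPM in Vehicle 1 to 4. The groups overlapped, and the means of 602 ± 269 CPM and 826 ± 649 CPM differed by a log2 fold change of -0.46 (standard error 0.54, edgeR adjusted p = 0.559). Without Vehicle 4 the fold change was 0.23. The gene next to Thbs2 in RefSeq is Smoc2, another matricellular gene, which is described with its family.

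Thbs3 (ENSRNOG00000059903), Thbs4 (ENSRNOG00000012471) and Comp (ENSRNOG00000048472) code for the pentameric thrombospondins, of which COMP is known for its part in collagen fibril assembly in cartilage and tendon. Thbs3 was at 55.4, 66.4, 35.3 and 34.8 CPM in BAPN 1 to 4 and at 96.1, 43.0, 80.1 and 147 CPM in Vehicle 1 to 4. Only Vehicle 2 fell within the BAPN range. Means were 48.0 ± 15.6 CPM and 91.5 ± 43.1 CPM, with a log2 fold change of -0.93 and a standard error of 0.36. Thbs3 was not called by edgeR (adjusted p = 0.0929) and was called by DESeq2 (adjusted p = 0.0349). Limma-voom did not call it either (adjusted p = 0.121), and the exact permutation test of Thbs3 alone gave p = 0.114. Its fold change stayed negative without each rat in turn, from -1.17 without Vehicle 2, when edgeR called it with an adjusted p of 0.0277, to -0.61 without Vehicle 4.

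Thbs4 was at 114, 90.0, 51.6 and 45.3 CPM in BAPN 1 to 4 and at 136, 49.4, 113 and 205 CPM in Vehicle 1 to 4. The groups overlapped, with BAPN 4 the lowest and Vehicle 4 the highest of the 8 libraries. Means of 75.3 ± 32.7 CPM and 126 ± 64.3 CPM gave a log2 fold change of -0.74 (standard error 0.44, edgeR adjusted p = 0.234), which was -0.40 without Vehicle 4. Comp was at 43.8, 32.2, 16.3 and 6.85 CPM with BAPN and at 39.1, 12.0, 22.3 and 190.5 CPM with Vehicle. Apart from Vehicle 4, at 7.78 times the mean of the others, the Comp values of the groups covered much the same range. Its log2 fold change of -1.41 was the most negative of the 10 genes (edgeR adjusted p = 0.257), and it was 0.02 without Vehicle 4. The limma-voom estimate was -0.90, with the largest standard error of the 10, 0.83. The summed markers of tendon and cartilage were also highest in Vehicle 4, at 365 CPM in a Vehicle range of 20.7 to 365 and a BAPN range of 26.2 to 168. Acan took most reads of that sum, at 79.8 ± 131 CPM in Vehicle and 50.8 ± 49.2 CPM in BAPN rats, and Mkx, Col2a1 and Chad were below the level for testing. All 5 tested had a negative fold change, with 0 called by edgeR and 0 below an unadjusted p of 0.05. DESeq2 gave no adjusted p for Acan and Sox9 and called 0 of the others. The part of these markers in Comp was not tested.

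Tnc (ENSRNOG00000058645) codes for tenascin-C, a hexameric glycoprotein induced by injury, stretch and TGF-β. It was at 619.9, 842, 354 and 462 CPM in BAPN 1 to 4 and at 425, 297, 306 and 1171 CPM in Vehicle 1 to 4. Vehicle 4 was the highest and the other 3 Vehicle libraries lay within or below the BAPN range. The means of 569 ± 212 CPM and 549.8 ± 418 CPM were close, with a log2 fold change of 0.05 (standard error 0.46, edgeR adjusted p = 0.949) and a limma-voom 95% interval of -0.82 to 1.26 that includes changes of more than a doubling in the BAPN direction. Without Vehicle 4 the Vehicle mean was 343 ± 71.7 CPM and the fold change 0.73.

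Postn (ENSRNOG00000012660) codes for periostin, a fasciclin-domain protein of activated fibroblasts that takes part in collagen crosslinking through the BMP1 and lysyl oxidase route. Its level was 2277, 3872, 1939.5 and 1807 CPM in BAPN 1 to 4 and 2456, 1250.3, 1914 and 4359 CPM in Vehicle 1 to 4. Both groups spanned low and high values, with BAPN 2 and Vehicle 4 the high library of each. Means of 2474 ± 953 CPM and 2495 ± 1337 CPM gave a log2 fold change of -0.01 (standard error 0.40, edgeR adjusted p = 0.986), and the limma-voom 95% interval of -0.83 to 0.95 bounds the difference to less than a doubling either way. The direction of Postn had no firm sign, from -0.33 without BAPN 2 to 0.40 without Vehicle 4.

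**Figure D3:**
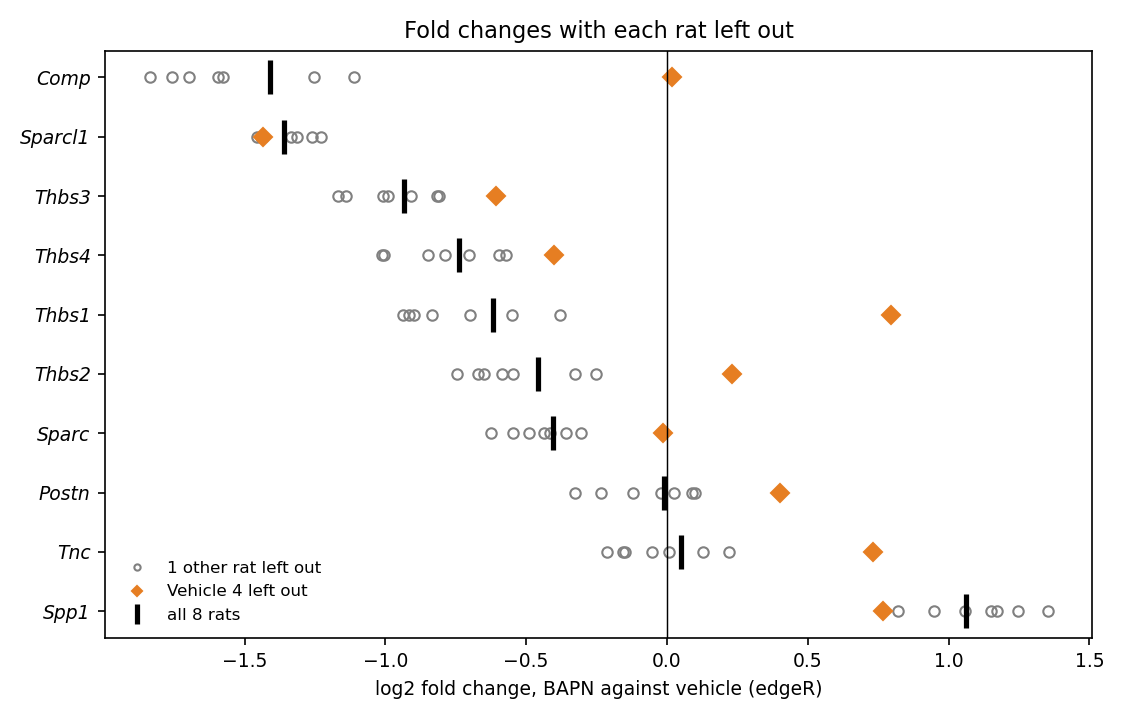
Log2 fold change of each gene (BAPN relative to Vehicle, edgeR) with all 8 rats and with each rat left out in turn. Sparcl1 stayed between -1.46 and -1.23 and Thbs3 below 0, while Thbs1, Thbs2, Comp, Tnc and Postn changed sign.

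The coefficient of variation was larger among Vehicle rats for all 10 genes, at 22.0 to 127% against 18.4 to 66.3% with BAPN, the lowest in both groups being Sparcl1. Without Vehicle 4 it was larger among Vehicle rats for 5 of the 10, and Tnc, for example, was at 20.9% against 37.2%. Relative to the group mean on the log2 scale, Vehicle 4 was higher by 2.34 for Comp, 2.24 for Thbs1, 1.41 for Thbs2, 1.34 for Tnc, 0.95 for Postn, 0.91 for Sparc, 0.88 for Thbs4 and 0.82 for Thbs3. For Sparcl1 its deviation was -0.22 and for Spp1 -1.38. Thus 1 library was high for the thrombospondins, tenascin-C, periostin and SPARC together and low for osteopontin. The same library had the highest fibroblast marker sum, 4570 CPM against 2085 to 3271 CPM in the others, and the highest smooth muscle sum, 6090 CPM, and the lowest macrophage sum, 7500 CPM. The part of these markers was not tested.

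**Figure D4:**
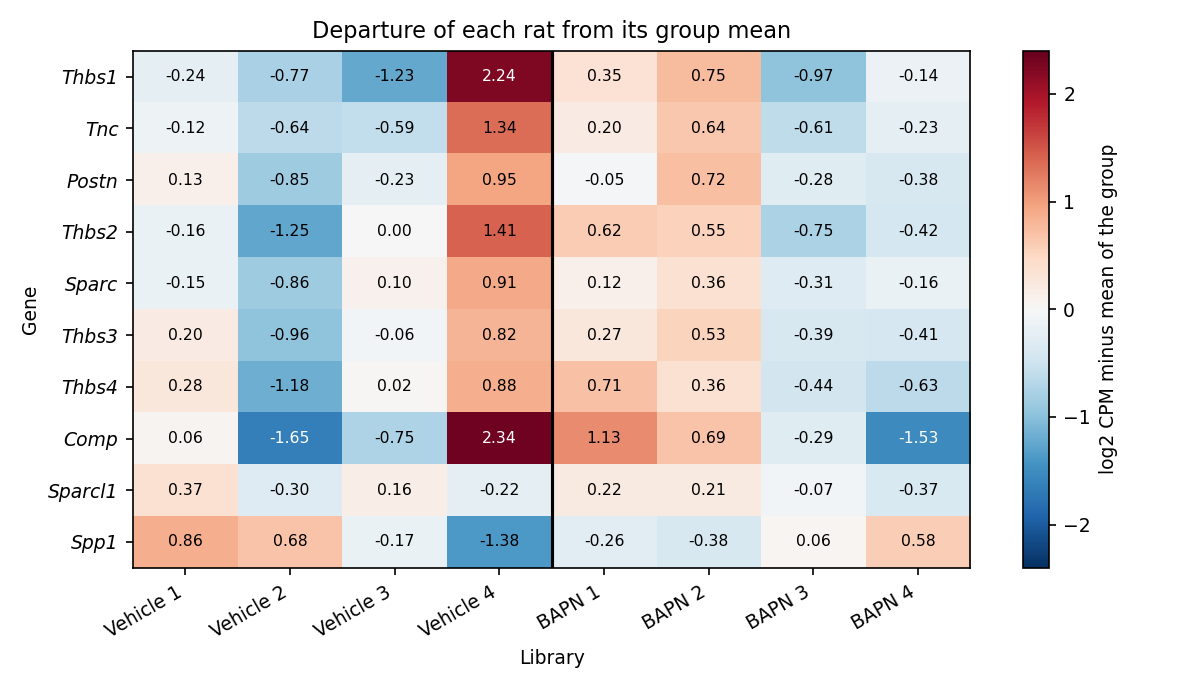
Deviation of every library from its group mean, in log2 CPM, for each of the 10 genes. Vehicle 4 lay above its group mean for 8 genes, by up to 2.34 for Comp, and below it for Sparcl1 (-0.22) and Spp1 (-1.38).

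As a description over the 8 libraries, which share this one departure, the 28 pairs among the 8 genes other than Sparcl1 and Spp1 had Pearson correlations of log2 CPM from 0.56 to 0.97 with a median of 0.84. Thbs1 and Tnc were the closest pair at 0.97. Without Vehicle 4 (7 libraries) the correlations ran from 0.14 to 0.96 with a median of 0.68. Spp1 ran opposite to these 8 genes, at -0.84 to -0.44, and without Vehicle 4 at -0.67 to 0.37. Sparcl1 correlated with them at -0.14 to 0.72, and without Vehicle 4 at -0.45 to 0.78.

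The tested genes whose levels were most like those of 9 of the 10 genes over the 8 libraries, by the same correlation, were as follows. Thbs1 was most like Itga10 (0.986) and Ptk7 (0.981), and Thbs2 most like Slc10a3 (0.995) and Csgalnact1 (0.973). Thbs3 was most like Farp1 and Foxp1 (both 0.989), Thbs4 most like Pcsk5 (0.980) and Xpot (0.978), and Comp most like Lrat (0.993) and P3h1 (0.977). Tnc was most like Marcksl1 (0.978) and then Thbs1 (0.967), where another of the 10 genes came up. Postn was most like C1qtnf3 (0.980) and Arf2 (0.973), and Sparc most like Fam180a (0.988) and Ppp1r36 (0.983). Spp1 was most like Pgam1 (0.991) and Plscr1 (0.990). These are the highest values in a large table of genes over 8 points and describe these libraries only.

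Genes that act with the 10 were taken from lists of other matricellular proteins, receptors, processing enzymes, matrix partners and regulators. These lists were chosen with earlier results of these data known. Of 84 listed, 80 were found and 73 tested, and 13 were called lower with BAPN and 0 higher by edgeR. That is 17.8% called, near the 16.8% of all tested genes, although all 13 went the same way where 9.25% of all tested genes were called lower and 7.5% higher. DESeq2 called 25, of which 24 were lower and 1, the calreticulin gene Calr, was higher (named after its value was seen). The number called by edgeR depended on single rats, from 3 without Vehicle 1 to 21 without Vehicle 2.

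**Figure D5:**
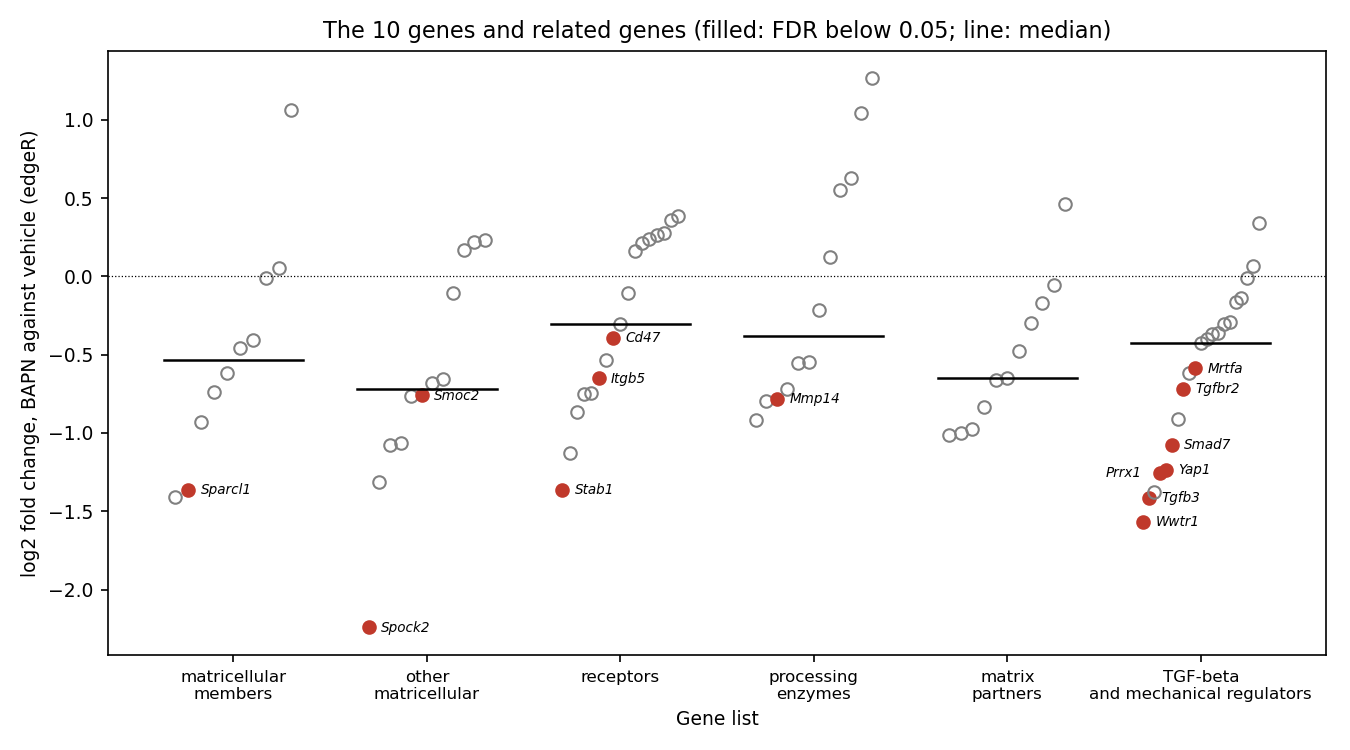
Log2 fold change (BAPN relative to Vehicle, edgeR) of each tested gene among the 10 and in the lists of other matricellular proteins, receptors, processing enzymes, matrix partners and regulators, with called genes filled and named and a line at each median. The 13 called related genes were all lower with BAPN, 7 of them regulators.

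Among other matricellular genes 12 were tested, 9 with a negative fold change and 2 called, with a median of -0.72. Both called genes belong with Sparc and Sparcl1 to the SPARC family. Spock2, a testican proteoglycan, fell from 5.75 ± 1.41 CPM to 1.21 ± 0.462 CPM (log2 fold change -2.24, standard error 0.36, edgeR adjusted p = 0.00962) and was called without each rat in turn. It had at most 171 reads in a library and reached the level for testing through the Vehicle libraries, where it was higher. Smoc2, a calcium-binding modular protein, fell from 233 ± 69.99 CPM to 138 ± 6.17 CPM (-0.76, standard error 0.21, edgeR adjusted p = 0.0362), but was called in 1 of the 8 fits that left out a rat. Grouped by family after the values were seen, 6 SPARC family genes were tested, all 6 with a negative fold change (48.4% of all tested genes). Of these 3, among them Spock2, were called, where 9.25% of all tested genes were called lower. Smoc1 was at -1.31 (edgeR adjusted p = 0.234) and Fstl1 at -0.76 (0.130), beside Sparc, which was at -0.01 without Vehicle 4. The 5 thrombospondin family genes and the 5 tested CCN genes all had negative fold changes and 0 were called by edgeR, although Thbs3, Ccn1 and Ccn5 were below an unadjusted p of 0.05 and were called by DESeq2. Without Vehicle 4, Thbs1, Thbs2 and Comp turned positive. Mgp, matrix Gla protein, the inhibitor of vascular calcification and the gene with the most reads of the list, averaged 1881 ± 205 CPM in BAPN and 1598 ± 540 CPM in Vehicle rats (log2 fold change 0.24, edgeR adjusted p = 0.490).

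Of 17 receptors tested, 10 had a negative fold change and 3 were called, all lower (17.6%). That is near the 16.8% of all tested genes called in either direction, while 9.25% were called lower. Stab1, the scavenger receptor through which macrophages and endothelium take up SPARC, fell from 147 ± 33.1 CPM to 57.2 ± 18.3 CPM (log2 fold change -1.36, edgeR adjusted p = 0.013) and was called without each rat in turn. Itgb5, an integrin subunit that binds osteopontin and periostin, fell by 0.65 on the log2 scale (edgeR adjusted p = 0.024), and Cd47, the thrombospondin-1 receptor, fell by 0.39 (edgeR adjusted p = 0.043). Itgb5 was called in 5 and Cd47 in 0 of the 8 fits that left out a rat, where the adjusted p of Cd47 reached 0.116. Lrp1, the endocytic receptor that clears thrombospondins, averaged 1174 CPM in BAPN and 1700.0 CPM in Vehicle rats (log2 fold change -0.53, edgeR adjusted p = 0.145).

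Among 12 processing enzymes, 7 had a negative fold change and Mmp14, a membrane collagenase, fell, from 1059 ± 312 CPM to 617 ± 94.8 CPM (log2 fold change -0.78, edgeR adjusted p = 0.043). It was called in 1 of the 8 fits that left out a rat, and 1 of 12 (8.33%) is below the 16.8% of all tested genes called. Mmp2, the gelatinase that Mmp14 activates, was at -0.55 (edgeR adjusted p = 0.235). Of 11 matrix partners, the collagens and other fibril components, 10 had a negative fold change with a median of -0.65, and 0 were called by edgeR, 2 were below an unadjusted p of 0.05 and 2 were called by DESeq2 (27.4% of all tested genes). Col1a1, the main chain of type I collagen, was at -1.002 (edgeR adjusted p = 0.118).

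Of the regulators 7 of 21 tested were called (33.3%), all lower, where 9.25% of all tested genes were called lower. Of the 21 fold changes 19 were negative (48.4% of all tested genes), with a median of -0.42. This list was chosen with earlier results known, and the paper reports Yap1, Tgfb3 and Tgfbr2 as lower in these data. The share called is therefore no independent support. Of 8 smooth muscle markers 6 were called lower as well, and of 7 fibroblast markers 2, and their part was not tested. Wwtr1 and Yap1, the TAZ and YAP coactivators that pair with TEAD factors, fell from 62.5 ± 18.7 to 21.1 ± 9.18 CPM and from 49.5 ± 20.2 to 21.0 ± 8.07 CPM (edgeR adjusted p = 0.019 and 0.039). Mrtfa, the actin-sensing coactivator of SRF, fell from 65.8 ± 5.52 to 43.8 ± 5.38 CPM (log2 fold change -0.59, edgeR adjusted p = 0.016) and was called without each rat in turn. Prrx1, a mesenchymal homeobox factor, fell from 182 ± 64.1 to 76.2 ± 22.9 CPM, and Smad7, the inhibitory SMAD of the TGF-β pathway, from 35.8 ± 14.5 to 17.0 ± 1.80 CPM (edgeR adjusted p = 0.025 and 0.027). The ligand Tgfb3 and the receptor Tgfbr2 were also called, each in 2 of the 8 fits that left out a rat, while Tgfb1, the gene with the most reads of this list, was at -0.16 (edgeR adjusted p = 0.601). Wwtr1 was called in 7 of the 8 fits that left out a rat, Prrx1 in 5, Smad7 in 4 and Yap1 in 2. With sex as a covariate Wwtr1 (edgeR adjusted p = 0.044) and Mrtfa (0.039) were called and the other 5 were not, at adjusted p of 0.0573 for Prrx1, 0.0686 for Smad7, 0.0836 for Yap1, 0.0816 for Tgfb3 and 0.0819 for Tgfbr2. In that fit Spock2, Itgb5 and Stab1 were called and Smoc2, Cd47 and Mmp14 were not.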

How the data were processed

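RNA from the fistula vein of 8 rats was depleted of ribosomal RNA, made into stranded libraries and sequenced on a NextSeq 500. The authors deposited raw read counts per gene for each library; the submitters' processing notes name bcl2fastq 2.17, Trim Galore and STAR, and the counting tool, strand setting and genome build are not given in the sources used here. Groups and sex came from the labels. The 10 genes were matched by gene name; 177 names stand for more than 1 gene, so genes were followed by identifier. The genes and the related and marker lists were chosen with earlier results of these data known.

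Genes with a mean normalised count of at least 100 were tested (11682 of 32623) with edgeR 4.0.16 (TMM, quasi-likelihood, group as the single term) in R 4.3.3, with Benjamini-Hochberg adjusted p below 0.05 as the call. Standard errors and 95% intervals came from limma-voom 3.58.1 and belong to its own estimates, not to the edgeR fold changes beside them. DESeq2 1.42.0 was an alternative. Single values were compared by exact two-sided permutation tests of log2 CPM (prior count 2), over 70 arrangements, with a smallest p of 0.0286. All 10 genes are named; of each related list, the called genes and the gene with the highest mean are named. Fits were tested on simulated data. No pair of libraries agreed within sampling noise (chi-square per degree of freedom 68.6 to 321). Counted reads came to 19548203 to 52241007 per library, and the sequencing depth itself cannot be told from the counts. Tnxb, Cd36, Hspg2, Mrtfb, Pecam1 and Myh2 were not analysed here. Markers of smooth muscle, endothelium, fibroblasts, macrophages, bone cells, lymphocytes, skeletal muscle, tendon and cartilage, adipocytes, nerve, keratinocytes and platelets were summed as CPM. The genes most like Sparcl1 are not reported here.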

Additional observations from a re-analysis of the deposited data

Results flagged for a closer look

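In 3 of the 20 groups of 4 CPM values examined (10 genes in each of 2 treatments), 1 library lay far from the other 3 by Dixon's 95% limit for 4 values, which chance passes in about 1 of 20 independent groups. All 3 were Vehicle 4: Thbs1 at 2044 CPM (gap over range 0.903), Tnc at 1171 CPM (0.853) and Comp at 190.5 CPM (0.848). They are 1 library in genes whose levels run together, so they are not separate draws. On log2 CPM, a scale added after the values were seen, the gap over range was 0.715, 0.738 and 0.573, and 0 of the 20 groups passed the limit.

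For Spp1 the interaction of sex and treatment was 2.19 on the log2 scale as fitted by edgeR, which did not call it (adjusted p = 0.265). DESeq2 called it (adjusted p = 0.00795), as it did 445 of all tested genes. The male BAPN arm is 1 rat, set against 2 Vehicle males, so its spread is taken from the other arms and a difference between the sexes cannot be told apart from that animal.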

How the results depend on the processing

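Sparcl1 kept its direction in all alternatives run and its call in all but females alone, where its log2 fold change was -1.30 (edgeR adjusted p = 0.0604). Of the 10 genes, DESeq2 called 3 and females alone 0 (edgeR, 1 below an unadjusted p of 0.05), and leaving out 1 rat gave 1 to 2, with 2 only through Thbs3 without Vehicle 2. Of the 73 related genes tested, 13 were called by edgeR, and this count became 25 by DESeq2, 5 with sex as a covariate, 0 in females alone (edgeR, 21 below an unadjusted p of 0.05) and 3 (without Vehicle 1) to 21 (without Vehicle 2) with 1 rat left out. Over all tested genes the 1957 calls became 3202 by DESeq2, 930 with sex as a covariate, 89 in females alone and 397 (without Vehicle 1) to 2215 (without Vehicle 2). The interaction of sex and treatment was called for 1 of the 10 genes by DESeq2 and 0 by edgeR, where 2 were below an unadjusted p of 0.05; over all tested genes these tools called 445 and 0.

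The sign of several fold changes turned. In females alone Thbs1 was at 0.67, Thbs2 at 0.61, Postn at 0.54, Comp at 0.27 and Sparc at 0.26. Postn was at 0.062 by limma-voom, 0.0050 with filterByExpr, 0.017 with no filter and 0.090 with sex as a covariate. Thbs1, Thbs2 and Comp became less negative, at -0.05, -0.27 and -0.90 by limma-voom and -0.04, -0.09 and -0.88 with sex as a covariate. With 1 rat left out Thbs1 ran from -0.94 to 0.80, Thbs2 from -0.74 to 0.23, Comp from -1.84 to 0.020, Tnc from -0.21 to 0.73 and Postn from -0.33 to 0.40, the upper end being without Vehicle 4 in each. The cause was not tested.

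Replicate numbers are shared by the groups, but deviations of same-numbered rats correlated at 0.09, -0.26, 0.27 and -0.14, and 3 of 8 libraries correlated best with their own number, so the numbers were not taken as pairs. With a replicate block 5 related genes and 556 of all tested genes were called, Thbs1 was at 0.061 and Postn at 0.054, and Sparcl1 was still called. Counted reads differed between groups by at least 2.01 times and thinning to equal totals changed no call among the 10.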

Other observations

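Markers of other cell types moved in both directions, and their calls stand beside the 16.8% of all tested genes called by edgeR (7.5% higher, 9.25% lower) and the 27.4% called by DESeq2. Of 7 fibroblast markers tested 6 had a negative fold change, with 2 called lower by edgeR and 4 called by DESeq2. Of 5 bone cell markers 3 had a positive fold change, with 1 called lower by edgeR and 3 called by DESeq2. Of the 3 that DESeq2 called, Acp5 and Ctsk were higher and Alpl was lower. All 4 lymphocyte markers tested had a positive fold change, with 2 called higher by edgeR and 3 called by DESeq2. For adipocytes 4 of 5 had a negative fold change, with 1 called lower by edgeR and 4 called by DESeq2, while Fabp4, which took most reads of the list, was at 0.70 on the log2 scale (edgeR adjusted p = 0.269). For nerve 3 of 5 had a positive one, with 0 called by edgeR, 1 below an unadjusted p of 0.05 and 0 called by DESeq2. Of 2 skeletal muscle markers 1 had a negative fold change, with 0 called by edgeR, 1 below an unadjusted p of 0.05 and 1 called by DESeq2. Of 2 platelet markers 1 was called lower by edgeR and 1 was called by DESeq2. The keratinocyte markers summed to 22.2 and 30.6 CPM in BAPN 1 and BAPN 2 and to 1.58 to 5.26 CPM in the other 6 libraries, and the single one tested, Dsg3, reached the level for testing through BAPN libraries alone.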
